A study of Mus musculus with 6 samples.

Results

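The insulin-like growth factor (IGF) axis was described in primary mouse keratinocytes through 10 genes: the ligands Igf1 and Igf2, the receptors Igf1r and Igf2r, and the binding proteins Igfbp2, Igfbp3, Igfbp4, Igfbp5, Igfbp6 and Igfbp7. They are 10 of 19935 genes that had at least 1 array row with a single gene symbol, and each of the 10 had 1 row. The genes were picked by name, with their differences between the groups already known, so those differences are given as a description and not as a test. The cells were wild-type keratinocytes of the CD1 strain in low-calcium growth medium, and all 6 samples received a retrovirus. For 3 of them it carried caNFATc1, a recombinant human NFATc1 that mutations in its autoinhibitory domain keep active. The 3 vector control samples received virus made from the empty MSCV vector. The labels used here give neither the age and sex of the mice nor the share of infected cells or the time after infection. The comparison asks which transcripts differ when NFATc1, a transcription factor normally switched on through calcium and calcineurin, is constantly active.

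IGF1 and IGF2 are small secreted proteins related to insulin that promote growth and survival of cells. Both signal through the tyrosine kinase receptor IGF1R, whereas IGF2R binds IGF2 and carries it to lysosomes. Secreted IGF-binding proteins hold most of the ligand and either block or deliver it, and proteases release it again. In skin, IGF1 comes largely from dermal fibroblasts and acts on the receptor of the overlying keratinocytes. Igf2 is an imprinted gene, expressed mainly from the paternal copy.

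Because NFAT factors bind DNA through the core letters GGAAA, the start of Igf2 is shown first, together with that of Igfbp7, the binding protein gene with the widest gap above the control. The sequences are the 250 bases before a start site on the gene's own strand, from RefSeq with the build GRCm38.p6. Capitals mark GGAAA on either strand, which reads TTTCC when it lies on the opposite one. All 10 genes matched an entry by symbol. Igf2 has 4 start sites there, and the window shown is that of the first, chr7:142666817-142667066 on the minus strand. That of Igfbp7 is chr5:77408046-77408295, also on the minus strand.
Igf2, first start: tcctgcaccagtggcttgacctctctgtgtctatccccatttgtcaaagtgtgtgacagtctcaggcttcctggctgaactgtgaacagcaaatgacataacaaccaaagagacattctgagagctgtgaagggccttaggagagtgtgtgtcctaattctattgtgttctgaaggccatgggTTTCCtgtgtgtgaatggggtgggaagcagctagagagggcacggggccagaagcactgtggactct
Igfbp7: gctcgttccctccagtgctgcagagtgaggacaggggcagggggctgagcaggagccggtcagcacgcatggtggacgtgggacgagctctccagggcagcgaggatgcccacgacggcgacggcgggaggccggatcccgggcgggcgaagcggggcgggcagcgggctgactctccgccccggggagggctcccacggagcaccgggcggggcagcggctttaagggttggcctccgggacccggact
The Igf2 window held GGAAA once, on the opposite strand, and the Igfbp7 window did not hold it. The second Igf2 start had 3 matches, which are shown with their surroundings because no other window of these genes had as many.
Igf2, second start, chr7:142661481-142661505: atagaataatTTTCCtcattcccca
Igf2, second start, chr7:142661416-142661440: tcgccacagtTTTCCcatttatgga
Igf2, second start, chr7:142661308-142661332: ttgatcattgTTTCCgctggccact
The windows of Igfbp3 and Igfbp4 held no match. Over all start sites of the 10 genes, 8 of 14 windows (57.1%) held the letters, against 18254 of 32851 windows (55.6%) in the whole RefSeq table. The motif is thus as frequent before other genes. A match is not a binding site, and binding was not measured.

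Before the results, the arrays differed by replicate number. Arrays with the same number deviated together in both groups, with correlations over genes of 0.71, 0.61 and 0.57, so equal numbers were treated as pairs. Replicate 1 stood apart from the rest in both groups, with Xist, the RNA of the inactive X chromosome, lower there by at least 5.97 log2 units. The Y-linked gene Eif2s3y read 3.00 and 3.77 on the vector control and caNFATc1 arrays of replicate 1 and between -0.08 and 0.01 on the other 4. The deposited log2 values are relative to the median of each row over the 6 arrays, so they show differences between arrays and say nothing of whether a gene is abundant. Rcan1, a known NFAT target, was higher by 3.61, 3.12 and 3.40 in the 3 pairs. The mouse Nfatc1 row differed by 0.04 ± 0.09 (SE without the block, n = 3 per group), but the transgene is human and this row does not check it. Of 12 keratinocyte marker genes 1 was higher and 0 lower by limma with the replicate number as a block, beside 3.73% and 2.38% of all genes. Trp63, a basal cell transcription factor, was higher in caNFATc1 cells by 0.42 ± 0.08 (adjusted p = 0.0444, and 0.322 without the block). The median difference of the 12 was -0.03, with 4 above 0 and 8 below. Krt15 differed by -0.58 and Dsc3 by -0.30 without passing, and Krt5 and Krt14 by 0.03 and -0.02. Since levels are not kept in the values, the labelled cell type cannot be checked by how strongly its markers were expressed.

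The axis split into 4 genes whose pairs agreed in direction and 6 whose pairs fell on both sides of 0. How many of all genes had pairs that agreed was not counted, so the split is a description only. Igf2, Igfbp7 and Igfbp4 were higher in caNFATc1 cells and Igfbp3 was lower, each in 3 of 3 pairs. With the replicate block, 3 of the 10 genes were higher and 1 lower at a limma adjusted p under 0.05 over all 19935 genes, where 3.73% of all genes were higher and 2.38% lower. Without the block 0 of the 10 passed by limma, where 0.216% of all genes did. An unadjusted p under 0.05 by limma was reached by 3 of the 10 and by 2534 of all 19935 genes. Nothing is read from these counts, because the genes were chosen with this contrast in view. In bulk RNA, a change in the number of cells that make a transcript and a change in the amount per cell cannot be told apart. The median difference of the 10 genes was 0.02, beside -0.01 over all genes.

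**Figure D1:**
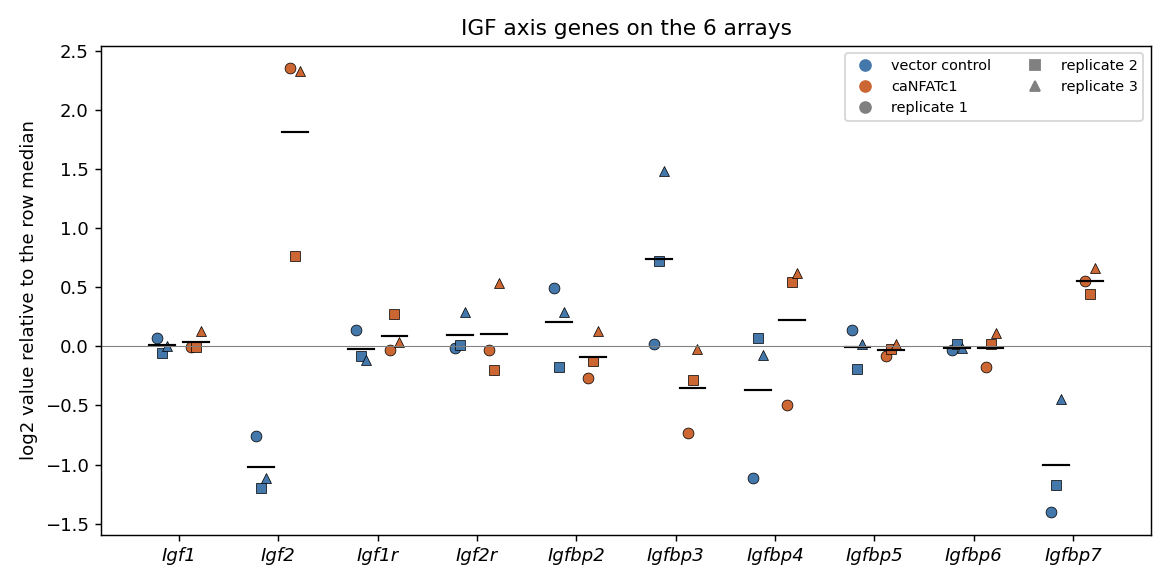
Log2 value of each gene of the IGF axis relative to its row median (vertical axis) on the 6 arrays, with vector control in blue, caNFATc1 in orange, a symbol for each replicate number and a bar at the mean of 3 arrays. The caNFATc1 arrays of Igf2 lie between 0.76 and 2.35 and those of the vector control between -1.19 and -0.76, while Igf1, Igfbp5 and Igfbp6 stay close to 0 on all arrays.

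Among the ligands, Igf2 had the widest gap of the axis. Its values relative to the row median were -0.76, -1.19 and -1.12 in vector control replicates 1, 2 and 3, and 2.35, 0.76 and 2.33 in caNFATc1 replicates 1, 2 and 3. The groups did not overlap, and the caNFATc1 array of replicate 2 lay well below the other two. The mean difference was 2.84 ± 0.27 (SE with the replicate block, n = 3 pairs; 0.45 without the block), which is 7.15-fold, and the pairs differed by 3.12, 1.96 and 3.45. By size this was the 10th largest positive difference of all 19935 genes. The spread was unequal: the SD over 3 arrays was 0.91 in caNFATc1 cells and 0.23 in vector control cells. The other ligand, Igf1, differed by 0.03 ± 0.07 (SE with the block), with values between -0.05 and 0.07 in the vector control and between -0.01 and 0.13 in caNFATc1 cells. Its groups overlapped, and 2 of 3 pairs were positive.

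The Mir483 gene lies inside Igf2 in GRCm38.p6 and had a row of its own. That row is annotated to the microRNA gene and is no second measure of Igf2 mRNA. Its 2 mature products are shown because their host is the gene with the widest gap, with the seed (bases 2 to 8) in capitals, from RefSeq.
mmu-miR-483-5p: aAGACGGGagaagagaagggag
mmu-miR-483-3p: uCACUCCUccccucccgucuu
The Mir483 row did not follow Igf2. It read 0.37, 0.00 and 0.00 in the 3 vector control arrays and -0.10, 0.03 and -0.05 in the 3 caNFATc1 arrays, a difference of -0.16 ± 0.11 (SE with the block, limma adjusted p = 0.496 with the block). Whether this row detects the precursor or mature products of 21 and 22 bases on these arrays was not tested. The transcript Igf2os overlaps Igf2 on the map and was not analysed here.

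Neither receptor gene had a gap between the groups. Igf1r, the signalling receptor, differed by 0.11 ± 0.11 (SE with the block) and by -0.17, 0.35 and 0.15 in the 3 pairs. Igf2r, which removes IGF2 from the cell surface, differed by 0.01 ± 0.10, with pairs at -0.02, -0.21 and 0.25. Its 2 highest arrays were both of replicate 3, at 0.29 in the vector control and 0.54 in caNFATc1 cells. The pairs of both receptors thus lay on both sides of 0, and their arrays overlapped between groups.

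**Figure D2:**
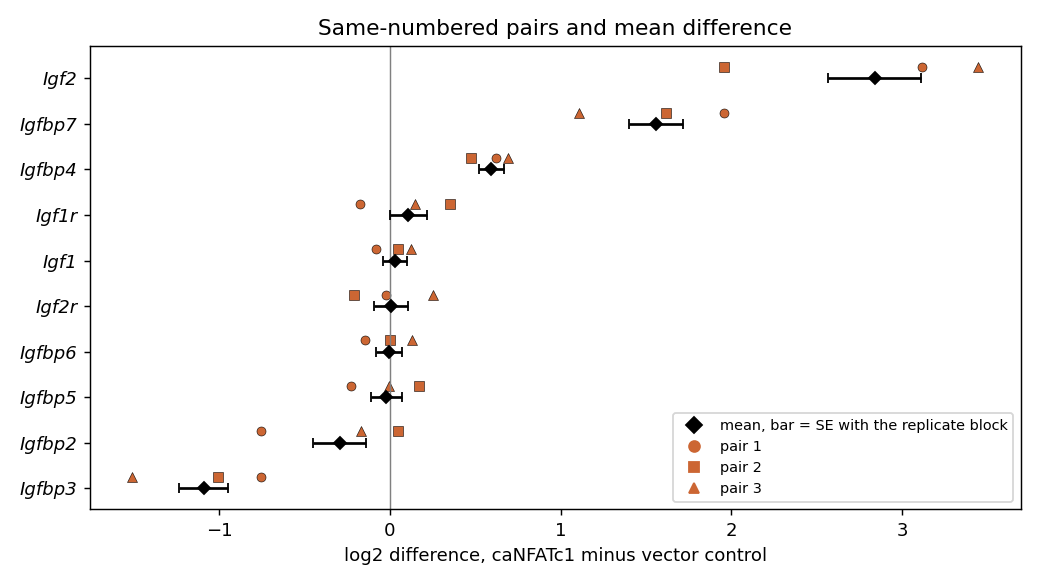
Log2 difference, caNFATc1 minus vector control (horizontal axis), of each IGF axis gene in the 3 same-numbered pairs (orange symbols) and as their mean (black diamond, bar = SE with the replicate block). Igf2, Igfbp7 and Igfbp4 lie above 0 and Igfbp3 below 0 in 3 of 3 pairs, while the pairs of the other 6 genes fall on both sides of 0.

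The binding proteins went different ways. Igfbp7 encodes a secreted relative with low affinity for IGFs that is deposited in matrix and vessel walls. Its values were -1.40, -1.17 and -0.44 in vector control replicates 1, 2 and 3, and 0.55, 0.44 and 0.66 in caNFATc1 replicates 1, 2 and 3. The groups did not overlap, and the caNFATc1 arrays lay much closer together (SD 0.11) than those of the vector control (SD 0.50). The mean difference was 1.56 ± 0.16 (SE with the block, 0.25 without), or 2.95-fold, with pairs at 1.96, 1.62 and 1.11.

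Igfbp4 encodes an inhibitory carrier that the protease PAPP-A cuts to free IGF. It read -1.11, 0.07 and -0.07 in vector control replicates 1, 2 and 3, and -0.49, 0.55 and 0.62 in caNFATc1 replicates 1, 2 and 3. Here the groups overlapped, because both arrays of replicate 1 were low. Within pairs the differences were nonetheless close to each other, at 0.62, 0.47 and 0.69. The mean was 0.59, or 1.51-fold, with an SE of 0.07 with the block and 0.43 without it.

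Igfbp3 encodes the main carrier of IGFs in blood and is also made by keratinocytes. It read 0.02, 0.72 and 1.48 in vector control replicates 1, 2 and 3, and -0.73, -0.29 and -0.02 in caNFATc1 replicates 1, 2 and 3. The groups did not overlap, but the lowest control array and the highest caNFATc1 array were only narrowly apart. The difference was -1.09 ± 0.14 (SE with the block, 0.39 without), which makes Igfbp3 2.13-fold higher in the vector control, and the pairs differed by -0.76, -1.01 and -1.51. By size this was the 24th most negative difference of all genes. In all, 3 of the 10 genes (Igf2, Igfbp7 and Igfbp3) had groups that did not overlap, as did 18.7% of all genes.

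**Figure D3:**
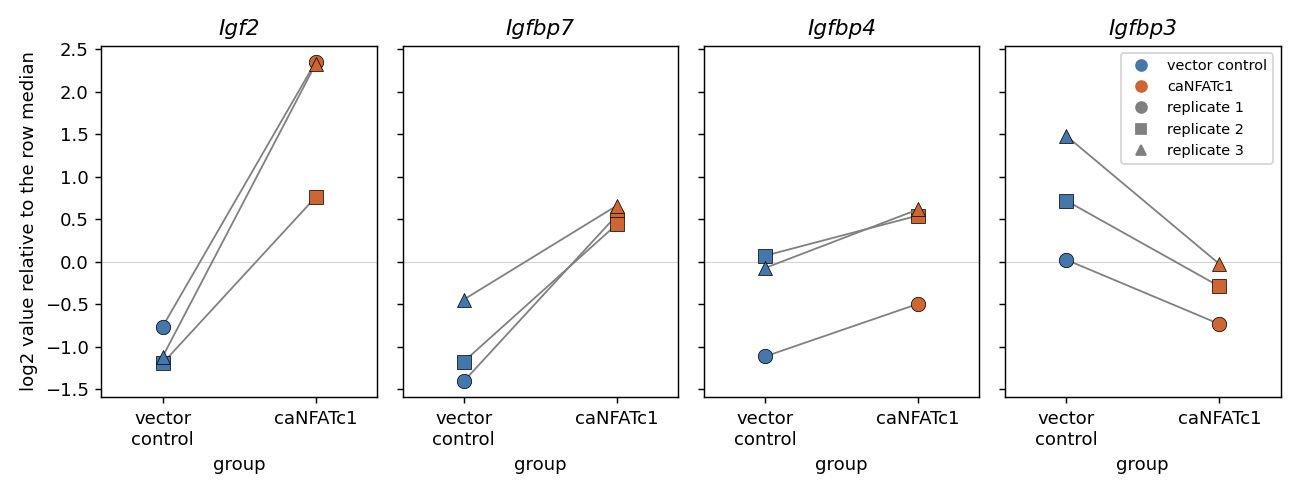
Log2 values relative to the row median (vertical axis) of Igf2, Igfbp7, Igfbp4 and Igfbp3 in vector control and caNFATc1 cells, with a grey line joining the arrays of the same replicate number. The lines of Igfbp4 run nearly parallel (pairs 0.62, 0.47 and 0.69) although replicate 1 sits far below the others, and those of Igfbp3 all run down.

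The remaining binding proteins showed no gap. Igfbp2, which can also bind integrins, differed by -0.29 ± 0.15 (SE with the block), and its pairs were -0.76, 0.05 and -0.17, so most of the mean came from replicate 1. Igfbp5, a carrier that binds to extracellular matrix, differed by -0.02 ± 0.09. Igfbp6, which prefers IGF2 over IGF1, differed by 0.00 ± 0.08. The 6 genes of the axis outside the 4 above lay between -0.29 and 0.11 with SEs between 0.07 and 0.15, and the arrays of each overlapped between groups.

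Replicate 1 mattered little for the 4 differences. Without both of its arrays, they were 2.70 for Igf2, 1.36 for Igfbp7, 0.58 for Igfbp4 and -1.26 for Igfbp3. Igf2 moved further when replicate 3 was left out, to 2.54, or replicate 2, to 3.28. After quantile normalization the difference of Igfbp3 was -1.27 and it was no longer past the limma threshold with the block.

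How the genes varied with the replicate number, averaged over both groups, does not depend on the mean difference by which they were known. The F test divides this by the scatter of the pair differences, however, and those were known as well. Its calls for these genes are thus a description. An F test of the replicate number in limma, with group in the fit, called 2 of the 10 genes, where 6.71% of all genes were called. Igfbp4 was lower in replicate 1 than in replicates 2 and 3 by 1.11 and 1.08, averaged over both groups (limma adjusted p = 0.00631). Without replicate 1 no difference was left, with replicate 3 below replicate 2 by -0.04 (limma adjusted p = 0.922). Igfbp3 was higher in replicates 2 and 3 than in replicate 1 by 0.57 and 1.08 (limma adjusted p = 0.0481). That call was lost in 10 of 14 alternatives, and over all 14 the adjusted p ranged from 0.00396 to 0.225. Igf2 differed by -1.01 between replicates 2 and 1 and did not pass (limma adjusted p = 0.226).

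Genes next to these members on the chromosome mostly lay near 0. The order of genes was taken from GRCm38.p6, while the arrays' build is named as mm8, so no positions are compared. Igf2 lies between Mrpl23 and Ins2 among protein-coding genes, and these differed by 0.00 ± 0.07 and 0.06 ± 0.07 (SE with the block; limma adjusted p = 0.999 and 0.739). Igfbp3 lies between Igfbp1, another IGF carrier gene, and Tns3, which encodes a focal adhesion protein. Igfbp1 differed by 0.01 ± 0.07 (adjusted p = 0.948 with the block), whereas Tns3 fell by 0.45 ± 0.08 (adjusted p = 0.0393 with the block). Igfbp2 and Igfbp5 are neighbours of each other, and neither had a gap. Beside Igfbp4, Top2a, the topoisomerase of dividing cells, differed by -0.40 ± 0.11 and Tns4 by 0.07 ± 0.11, and neither passed (limma adjusted p = 0.0973 and 0.801 with the block).

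The profiles most like Igf2 over the 6 arrays were those of Platr8, Ltbp3, Gpx1 and Plpp1, with Pearson correlations of 0.993, 0.991, 0.991 and 0.989. Their differences between groups were 0.07, 1.59, 0.52 and 2.53, since a correlation ignores the size of a change. For Igfbp3 the closest were Ssbp1, Baalc, Exosc3 and Klra3, with correlations of 0.998, 0.994, 0.990 and 0.987 and differences of -0.27, -0.26, -0.19 and -0.18. These are descriptions over 6 arrays that share their groups and replicate numbers.

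The other genes of the pathway were then counted over 10 lists, of which 109 of 119 genes were measured. With the replicate block, 14 rose (12.8% of those measured) and 3 fell (2.75%), beside 3.73% and 2.38% of all genes. These counts are a description, because the lists were chosen with earlier results of these data known. Without the block 2 rose, Insl6 and Peg3, and 25 had an unadjusted p under 0.05 by limma. The median difference was 0.04, beside -0.01 over all genes. The count with the block rested in part on replicate 2: without it 6 rose and 3 fell. Over all genes the number that rose also went down, from 744 to 513. In what follows the brackets give the SE and the limma adjusted p with the block, and all but the 2 genes just named passed with the block alone.

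Relatives of the ligands and receptors were led by Insl6, a member of the insulin superfamily, which rose by 1.48 (SE 0.15, adjusted p = 0.0105; 0.0446 without the block). Its values were -0.73, -0.84 and -0.57 in the vector control and 0.57, 1.10 and 0.64 in caNFATc1 cells. Insr, the insulin receptor gene, rose by 0.54 (SE 0.07, adjusted p = 0.0203), with pairs at 0.64, 0.55 and 0.41. These were 2 of 7 genes measured, and Igfals, Igfbp1, Igfbpl1, Ins2 and Insrr did not pass. Among 8 proteases of binding proteins and their inhibitors 1 rose, Adam12, a membrane protease that can cut IGFBP3 and IGFBP5, by 0.75 (SE 0.10, adjusted p = 0.0203). Pappa, whose product cuts IGFBP4, differed by 0.03 ± 0.08 (adjusted p = 0.900).

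Other proteins carry an IGFBP domain without being classed as IGF carriers. Of 9 such genes measured, 3 rose and 0 fell with the block, 0 passed without it, and 4 had an unadjusted p under 0.05 by limma. Ccn2, which encodes connective tissue growth factor, rose by 1.53 (SE 0.17, adjusted p = 0.0136). It read -0.53, -0.90 and -1.34 in the vector control and 0.53, 0.65 and 0.66 in caNFATc1 cells. The membrane protein gene Crim1 rose by 0.85 (SE 0.11, adjusted p = 0.0185) and the matricellular gene Ccn1 by 1.01 (SE 0.20, adjusted p = 0.0464). The median of this list was 0.00, as the other 6 lay between -0.23 and 0.33.

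**Figure D4:**
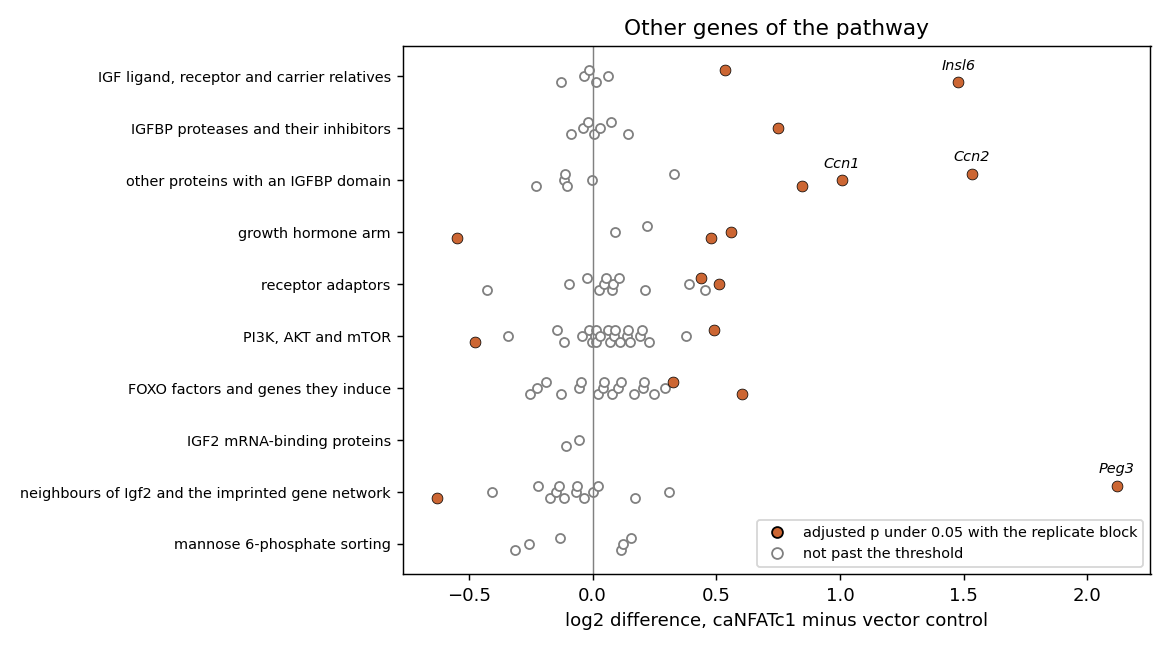
Log2 difference, caNFATc1 minus vector control (horizontal axis), of the 109 measured pathway genes in 10 lists (rows, with points shifted vertically to keep them apart). Filled points passed limma's adjusted p under 0.05 with the replicate block, 14 above and 3 below 0, and those beyond 1 log2 unit carry their names.

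Signalling genes inside the cell moved by less. Among 14 adaptors of the receptors, Irs2, an insulin receptor substrate, rose by 0.51 (SE 0.06, adjusted p = 0.0168) and the docking protein gene Gab1 by 0.44 (SE 0.07, adjusted p = 0.0310). Of 24 genes of PI3K, AKT and mTOR, the AKT phosphatase gene Phlpp1 rose by 0.49 (SE 0.06, adjusted p = 0.0173) and Deptor, which encodes an inhibitor of mTOR, fell by 0.47 (SE 0.08, adjusted p = 0.0290). Of 19 FOXO factors and genes that they induce, Ccng2 rose by 0.60 (SE 0.06, adjusted p = 0.0116) and Sesn3 by 0.32 (SE 0.06, adjusted p = 0.0434). The arrays of both overlapped between groups, and their calls rest on the pairing, with limma adjusted p = 0.370 and 0.895 without it. In the growth hormone arm, which drives Igf1 in liver, 2 of 5 rose and 1 fell. Stat5a rose by 0.56 (SE 0.08, adjusted p = 0.0245) and Jak2 by 0.48 (SE 0.08, adjusted p = 0.0290), while Socs2, a feedback inhibitor, fell by 0.55 (SE 0.10, adjusted p = 0.0357).

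Among neighbours of Igf2 and the network of imprinted genes, 1 of 15 rose and 1 fell. Peg3, an imprinted zinc finger gene, rose by 2.12 (SE 0.16, adjusted p = 0.00604; 0.0258 without the block), and Mest fell by 0.63 (SE 0.07, adjusted p = 0.0122; 0.845 without the block). Mest also differed by replicate number, with replicate 1 lower than replicates 2 and 3 by 2.39 and 2.01 (limma F test adjusted p = 0.00115). H19, Igf2os and Gnas were not analysed here. Neither Igf2bp1 nor Igf2bp3, whose products bind Igf2 mRNA, passed (-0.06 ± 0.07 and -0.11 ± 0.07; limma adjusted p = 0.770 and 0.432 with the block). Of 6 genes that sort lysosomal enzymes by mannose 6-phosphate, the ligand of the other site of IGF2R, 0 passed limma with or without the block, and 1 had an unadjusted p under 0.05 without it. With the block Gga3 had the lowest p, at -0.26 ± 0.06 (limma adjusted p = 0.0810). Without it Gga2 did, at a difference of -0.31 (limma adjusted p = 0.211).

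Markers of other skin cells were measured beside these results, since fibroblasts express several IGF axis genes. Of 18 fibroblast markers 5 rose and 0 fell with the block, beside 3.73% and 2.38% of all genes. Without the block 0 of the 18 passed, and 6 had an unadjusted p under 0.05 by limma, as did 2534 of all 19935 genes. The 5 markers that rose were the collagen genes Col5a2 (2.05, SE 0.19, adjusted p = 0.00859), Col3a1, Col6a1 and Col6a2, and the transcription factor gene Prrx1. The other 13 did not pass and lay between -0.86 for Fbln2 and 0.83 for Pdgfra, the receptor of platelet-derived growth factor, whose arrays did not overlap between groups. Among them Col1a1 differed by 0.48, Pdgfrb by 0.26, Dcn by 0.08, Lum by -0.01 and Thy1 by -0.14. The mean of the list was between -0.22 and -0.09 on vector control arrays and between -0.08 and 0.53 on caNFATc1 arrays. Its median difference was 0.01, 0.06 and 0.48 in pairs 1, 2 and 3, with members on both sides of 0. In pair 1, for example, Col5a2 differed by 2.11 and Fbln2 by -1.46. Markers also differed by replicate number: the limma F test called 2 of 18 fibroblast and 4 of 12 keratinocyte markers, where 6.71% of all genes were called. Vim read -2.98 and -2.92 on the vector control and caNFATc1 arrays of replicate 1, and between -0.03 and 0.79 on the rest (limma F test adjusted p = 0.00115). Whether fibroblasts had a part in the Igf2, Igfbp7 and Igfbp4 differences was not tested, and the row-centred values do not show which markers were absent. Of 8 smooth muscle and pericyte, 8 melanocyte, 8 endothelial and 10 immune markers, 0 passed limma with or without the block, and 1, 0, 0 and 0 had an unadjusted p under 0.05 without it.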

How the data were processed

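The authors deposited 1 table of log2 values of 6 single-colour arrays with 28815 rows. Per the submitters' processing notes RMA and mm8 were used; software, version and row filters are not given in those notes. Each row's median over the arrays was 0 within 1e-06, so values are relative to it, and log base 2 was taken because RMA gives it. No signals over background were used, and the number of arrays limits the precision. The platform annotation gave 21780 rows 1 symbol, 1605 several and 5430 none. Rows of a gene were averaged (998 of 19935 genes had several). Sample titles gave the group and the replicate number. The series calls the replicates biological without saying what separates them, so the p-values reflect only the spread over these samples, which may be in part technical.

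Genes were fitted with limma 3.58.1 (R 4.3.3; lmFit, eBayes, 2-sided, Benjamini-Hochberg over all genes, threshold 0.05), with group as the only term and, as the alternative, with the replicate number as a block. Deviations from group means correlated over genes at 0.71, 0.61 and 0.57 for same-numbered arrays and between -0.60 and 0.18 otherwise. As all 3 were above the limit of 0.1, equal numbers were treated as pairs. Vector control replicate 2 with caNFATc1 replicate 3, at 0.18, was above it too, so the limit alone does not single out equal numbers. Deviations within a group sum to 0, which in part forces the low values of unequal numbers. The scripts were checked on simulated data.

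The members and lists were chosen with earlier results of these data known. Named were all members, up to 4 genes of each list past the threshold in either fit or else the 1 with the lowest p, Rcan1, Nfatc1 and the 4 profiles most correlated with Igf2 and Igfbp3. Mir483, the neighbouring genes, the single fibroblast and keratinocyte markers, and the unchanged pathway genes such as Pappa were named after their values were seen. Of the listed genes, 6 were matched by older symbols, as RefSeq's synonyms give them.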

Additional observations from a re-analysis of the deposited data

How the results depend on the processing

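The group difference kept its sign under all alternatives for Igf2 (2.54 to 3.37), Igfbp7 (1.36 to 1.84), Igfbp4 (0.22 to 0.95) and Igfbp3 (-1.45 to -0.72). The counts of axis genes given here are a description, because those genes were chosen with this contrast known, and show no stability. With the replicate block 1219 genes were called over all genes, 4 IGF axis genes and 17 pathway genes, against 43, 0 and 2 without. With arrays or whole replicate numbers left out, unblocked counts ranged from 0 to 83 for all genes, from 0 to 1 for the axis (Igf2, without caNFATc1 replicate 2) and from 0 to 2 for the pathway. With a replicate number left out and the replicate block, the counts of all genes were 711, 743 and 1086 without replicates 1, 2 and 3, those of the axis stayed at 4, and those of the pathway were 15, 9 and 16. Limma called 0 genes without vector control replicate 3 (2113 at an unadjusted p under 0.05) and without replicate 3 of both groups (1580).

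Without the block, quantile normalization gave 145, 2 (Igf2 and Igfbp7) and 1, eBayes with trend and robust gave 310 genes and 5 pathway genes, and testing all rows gave 1 pathway gene. Together with the replicate block, in alternatives chosen after seeing the data, the counts of all genes, axis genes and pathway genes were 893, 3 and 14 with quantile normalization, 1157, 4 and 16 with array medians subtracted, 1184, 4 and 18 with the row of largest SD, 1967, 4 and 18 with trend and robust, and 584, 4 and 13 over all rows. The F test of the replicate number called 1337 genes, from 696 to 1708 with 1 array left out, from 40 to 1862 with a replicate number left out, 402 after quantile normalization and 772 over all rows; without replicate 1 of both groups it called 40. The causes were not tested. Row-centred values allow no filter on dim rows.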

Other observations

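Other genes with IGF in their names, outside the axis and the lists, were looked at after the values were seen. Igfl3, a member of the separate IGF-like family, differed strongly by replicate number. It read -2.42, 1.03 and 0.86 in vector control replicates 1, 2 and 3, and -2.35, -0.11 and 0.11 in caNFATc1 replicates 1, 2 and 3. The replicate number passed the F test (limma adjusted p = 0.00845), and the groups differed by -0.61 ± 0.22 (SE with the block) without passing (limma adjusted p = 0.182 with the block). Igflr1, its family's receptor gene, differed by -0.12 ± 0.06, and the antisense transcript Igf1os by -0.06 ± 0.07, and neither passed (limma adjusted p = 0.345 and 0.693 with the block).

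Replicate number also separated imprinted genes of the same network as Igf2. Of the 15 measured genes of the list, which holds neighbours of Igf2 beside imprinted genes, the limma F test called 5. These were Mest, Ndn, Slc38a4, Airn and Plagl1, where 6.71% of all genes were called. Plagl1, a zinc finger factor, was higher in replicate 1 than in replicates 2 and 3, with differences of -1.80 and -1.62 (adjusted p = 0.00455), while its groups differed by -0.03 ± 0.09. Airn, the transcript that silences the paternal Igf2r copy in other tissues, was also higher in replicate 1, with differences of -1.42 and -1.13 for replicates 2 and 3 (adjusted p = 0.0477). Igf2r itself did not pass (adjusted p = 0.105).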
